A study of Homo sapiens with 2 samples.

Results

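The genes described here lie on the short arm of chromosome 11, from its tip to DEPDC7, and were measured in THP-1 cells resistant to cytarabine and in their parental cells. The deposited table held 30856 gene rows, of which 394 lay in this stretch and 218 of those were protein-coding. Genes were taken when they ended no farther than DEPDC7 and reached at least 1 FPKM (fragments scaled to transcript length and library size) in either library. This left 123 genes. The rule then set aside 31 by name (ribosomal, proteasome, carrier and immune families, among others), and 92 members remained, out of 10321 expressed protein-coding genes in all. The other 95 protein-coding genes of the stretch stayed below 1 FPKM in both libraries. The proximal limit had been placed from the ratio between these same 2 libraries, so the levels and ratios of the members are a description and no test was made of them.

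THP-1 is an established line from a human acute monocytic leukaemia, with a rearranged KMT2A gene. There was 1 library of Ara-C resistant THP1 cells, obtained by raising cytarabine stepwise from 5 nM to 10 µM, and 1 library of untreated parental THP1 cells. Ara-C, or cytarabine, is a nucleoside analogue that is incorporated into DNA. Both libraries were poly(A) RNA from cells grown in the same medium, and the labels name no clone and no separate culture. With 1 library per group no difference has a replicate check. Every difference below is between these libraries, whose groups cannot be told apart from whatever else differed between the cultures.

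The short arm of chromosome 11 carries a domain of imprinted genes near its tip, where some genes are read from a single parental copy. It also carries genes with known parts in myeloid leukaemia. NUP98 encodes a nucleoporin that is a recurrent fusion partner in acute myeloid leukaemia, and WT1 encodes a transcription factor often expressed in leukaemic blasts. The other genes of the arm have many unrelated functions, among them transcription, membrane traffic and metabolism.

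The promoter sequences of 4 genes are shown because they mark the limit of the stretch and the places where neighbouring members parted. Each window runs from 250 bases before to 50 bases after a RefSeq start site (GRCh38.p14), 5′ to 3′ on the strand of the gene. The RefSeq start site of RRAS2 is also its start in the deposited table. Those of DEPDC7, TCP11L1 and METTL15 lie farther inside the gene. DEPDC7 is the last member and TCP11L1 the first expressed protein-coding gene beyond it, and 5834 bases separate their ends in the table. RRAS2 had the lowest ratio of all members. METTL15 starts head to head with KIF18A, and theirs was the only one of 8 such member pairs with ratios of opposite sign. In DEPDC7, TCP11L1 and RRAS2 the capitals mark GC boxes (GGGCGG on either strand), and in METTL15 they mark the bases from the start site of KIF18A to that of METTL15.
DEPDC7, chr11:33015867-33016166, plus strand: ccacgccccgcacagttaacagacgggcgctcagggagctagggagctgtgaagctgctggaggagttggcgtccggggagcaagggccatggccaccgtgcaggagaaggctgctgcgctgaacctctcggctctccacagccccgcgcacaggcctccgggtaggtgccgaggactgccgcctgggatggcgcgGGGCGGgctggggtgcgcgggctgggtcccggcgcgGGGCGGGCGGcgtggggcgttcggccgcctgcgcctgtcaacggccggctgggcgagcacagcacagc
TCP11L1, chr11:33039322-33039621, plus strand: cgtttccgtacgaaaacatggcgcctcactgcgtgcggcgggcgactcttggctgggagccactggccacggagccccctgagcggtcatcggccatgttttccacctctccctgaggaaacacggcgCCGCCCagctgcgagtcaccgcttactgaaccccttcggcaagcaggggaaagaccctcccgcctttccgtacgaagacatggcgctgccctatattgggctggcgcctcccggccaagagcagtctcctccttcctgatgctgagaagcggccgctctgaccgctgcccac
RRAS2, chr11:14364457-14364756, minus strand: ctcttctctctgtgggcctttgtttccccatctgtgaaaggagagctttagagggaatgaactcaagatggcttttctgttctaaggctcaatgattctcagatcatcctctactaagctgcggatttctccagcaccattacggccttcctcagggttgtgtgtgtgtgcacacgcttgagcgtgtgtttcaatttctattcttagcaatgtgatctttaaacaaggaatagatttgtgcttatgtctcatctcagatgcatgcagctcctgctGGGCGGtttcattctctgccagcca
METTL15, chr11:28108138-28108437, plus strand: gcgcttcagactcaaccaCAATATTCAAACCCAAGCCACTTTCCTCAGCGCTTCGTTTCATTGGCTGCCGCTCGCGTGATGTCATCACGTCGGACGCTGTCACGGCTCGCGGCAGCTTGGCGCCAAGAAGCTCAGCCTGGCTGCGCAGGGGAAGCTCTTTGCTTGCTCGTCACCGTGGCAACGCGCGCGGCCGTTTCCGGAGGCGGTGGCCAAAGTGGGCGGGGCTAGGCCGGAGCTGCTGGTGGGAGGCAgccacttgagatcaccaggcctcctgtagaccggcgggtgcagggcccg

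The resistant library held 58285463 counts and the parental library 57434972. The label of the cells was set beside 11 myeloid markers, listed with earlier results of these data known. All 11 reached 1 FPKM in at least 1 library, with a summed level of 1435 FPKM in resistant cells and 1483 in the parental cells. MPO stood at 0.94 FPKM in resistant cells and 2.81 in the parental cells. Single markers differed by more than the sums, in both directions. LYZ stood at 95.8 FPKM in resistant cells and 225 in the parental cells, and ELANE at 448 and 359. The T cell, B cell, fibroblast and epithelial markers present in the table were all below 1 FPKM in both libraries, with CD2 at 0. Of 5 erythroid markers listed, 0 were present in the table.

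Most members were slightly higher in resistant cells. Their median log2 ratio, log2((FPKM resistant + 1)/(FPKM parental + 1)), was 0.21, against -0.02 over all 10321 expressed protein-coding genes. The pseudocount of 1 FPKM shrinks the ratios of low genes. Of the 92 members, 76 were above 0, 15 below and PNPLA2 exactly at 0. Over all expressed protein-coding genes 45.5% were above 0; since the rule used this contrast, nothing is read from the gap. The middle 50% of members lay between 0.07 and 0.36, so that most of them were a little higher. Over all expressed protein-coding genes the middle 50% was about as wide, from -0.18 to 0.12.

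The summed counts of the members took 0.547% of the resistant and 0.446% of the parental library. Relative to the library totals this was a fold of 1.23 (exact 95% interval 1.22 to 1.23), and the median fold of single members was 1.20. Such intervals are exact ones (Clopper-Pearson), computed from the part of the counts that fell in the resistant library. They treat fragments as independent molecules, cover counting error only and say nothing of the spread between cultures.

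**Figure D1:**
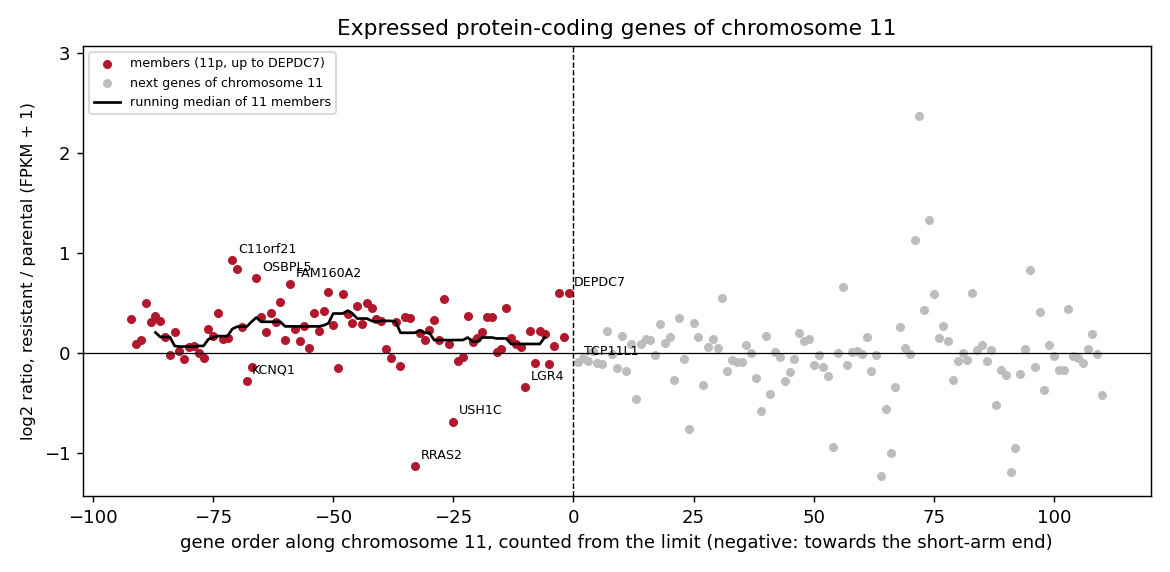
Log2 ratio of FPKM + 1 (resistant over parental, vertical axis) of each member in red and of the next 110 genes of chromosome 11 chosen by the same filters in grey, by gene order from the limit (horizontal axis). The black line is the running median of 11 neighbouring members, which stays between 0.06 and 0.42, while the grey points lie around 0.

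The single members differed from each other by more than counting error. The counting interval lay above a fold of 1 for 70 members, below 1 for 8 and held 1 for 14; over all expressed protein-coding genes it lay above 1 for 34.1% and below 1 for 40.6%. The interval of 23 members held the median fold of 1.20, that of 34 lay above it and that of 35 below it. The SD of the log2 ratio was 0.29 among members and 0.33 over all expressed protein-coding genes.

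By a rule of size, 8 members were at least 1.5-fold higher in resistant cells on the FPKM + 1 scale, and 2 were at least 1.5-fold lower. Over all expressed protein-coding genes the shares past this size were 2.17% higher and 4.51% lower. Past a smaller size, a log2 ratio of 0.32, were 30 members on the higher and 3 on the lower side, beside 8.47% and 12.7% of all expressed protein-coding genes. Thus the shared difference was small, and only a few members passed the larger size.

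**Figure D2:**
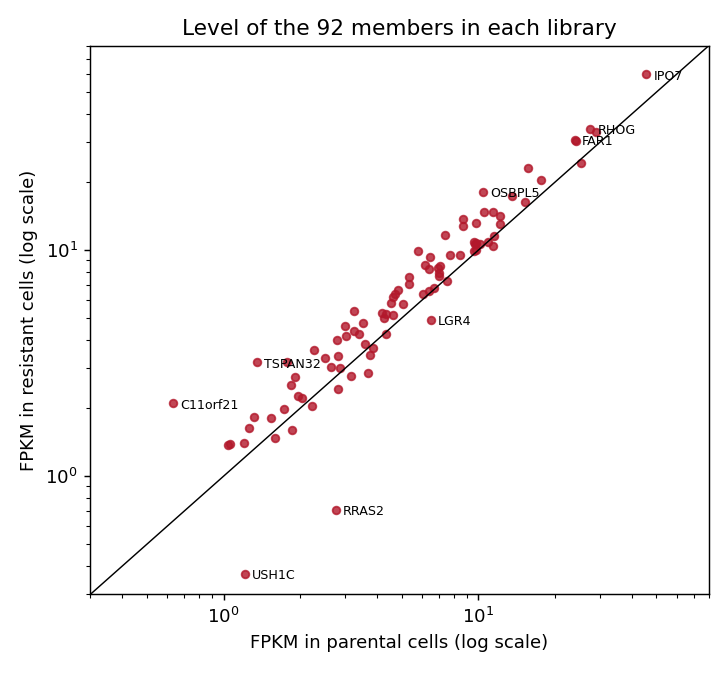
FPKM in resistant cells (vertical, log scale) against FPKM in parental cells (horizontal, log scale) for the 92 members, with the line of equal levels. Most points lie just above the line, from C11orf21 at 2.10 against 0.63 FPKM to IPO7 at 60.0 against 45.5 FPKM, and RRAS2 and USH1C lie far below it.

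The highest expressed members included genes of nuclear transport, vesicle coats and lipid synthesis. IPO7, a nuclear import receptor, stood at 60.0 FPKM in resistant cells and 45.5 in the parental cells, a fold of 1.32 by counts. RHOG stood at 34.4 and 27.5 FPKM in the same order, COPB1, a subunit of the COPI vesicle coat, at 33.3 and 28.8, and FAR1, a reductase of ether lipid synthesis, at 30.7 and 23.9. RNH1, the ribonuclease inhibitor, stood at 30.5 FPKM in resistant cells and 24.2 in the parental cells. NUCB2, a calcium-binding protein of the secretory pathway, stood at 23.2 and 15.7, and NUP98 at 20.4 and 17.5. POLR2L, a small subunit shared by the RNA polymerases, was the one of these 8 that was not higher, at 24.3 FPKM in resistant cells and 25.2 in the parental cells. Over all members the levels ran from 0.37 to 60.0 FPKM in resistant cells (median 6.28) and from 0.63 to 45.5 FPKM in parental cells (median 4.95).

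Of the 55 members with at least 5 FPKM in the higher library, OSBPL5 had the largest ratio. It encodes a lipid transfer protein of the endoplasmic reticulum and stood at 18.1 FPKM in resistant cells and 10.4 in the parental cells, with 9182 and 5189 counts and a fold of 1.74 (1.69 to 1.80). FAM160A2, a subunit of an adaptor complex that links vesicles to dynein, stood at 9.91 and 5.77 FPKM, a fold of 1.72 (1.62 to 1.82). TMEM9B, a lysosomal membrane protein, stood at 13.8 and 8.72 FPKM, and PRRG4, a transmembrane protein with a vitamin K-dependent domain, at 11.6 and 7.36. These intervals lay well above the median fold of the members.

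TMEM41B, a lipid scramblase needed to form autophagosomes, stood at 5.40 FPKM in resistant cells and 3.25 in the parental cells. NUCB2 followed at a fold of 1.48 (1.44 to 1.52), and STIM1, the calcium sensor of the endoplasmic reticulum, at 12.7 and 8.66 FPKM with a fold of 1.48 (1.42 to 1.54). SWAP70, which binds phosphoinositides and acts on Rac, stood at 9.34 FPKM in resistant cells and 6.46 in the parental cells. These 8 came from several of the role lists given below or from none. The other 4 of the 12 highest were CTR9 of the PAF1 elongation complex (14.7 and 10.5 FPKM), the arginine methyltransferase PRMT3 (7.61 and 5.33), AKIP1 (8.60 and 6.17) and TAF10, a subunit of TFIID and SAGA (13.2 and 9.76).

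At the other end LGR4, a receptor for R-spondins in WNT signalling, was lower in resistant cells. It stood at 4.90 FPKM in resistant cells and 6.49 in the parental cells, a fold of 0.757 (0.715 to 0.801). RCN1, a calcium-binding protein of the endoplasmic reticulum, stood at 10.4 and 11.4 FPKM, a fold of 0.918 (0.875 to 0.964). For the other 10 of the 12 lowest, the levels were nearly equal in the libraries.

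Among these were POLR2L (described above), SAAL1 at 7.27 FPKM in resistant cells and 7.54 in the parental cells and PNPLA2, the main triglyceride lipase, at 10.9 in both. E2F8, a repressor of the E2F family, stood at 11.6 and 11.5 FPKM, the transcription factor DEAF1 at 6.77 and 6.69, and HTATIP2 at 10.0 and 9.74. The deubiquitinase USP47 stood at 6.61 and 6.39, the integrin-linked kinase ILK at 9.94 and 9.58, GATD1 at 10.6 and 10.1, and PIDD1, which activates caspase 2, at 6.38 and 6.04. The counting interval held 1 for SAAL1, POLR2L, PNPLA2, E2F8, DEAF1, HTATIP2 and ILK. In the order of members several of these genes follow each other. DEAF1, GATD1, PIDD1, PNPLA2 and POLR2L are in 1 run near the tip, with TMEM80 (log2 ratio -0.06) among them, and E2F8 is next to HTATIP2. The run near the tip is broken by genes set aside by name. These were TALDO1, SLC25A22, RPLP2 and CD151, with log2 ratios of 0.16, 0.36, 0.33 and 0.33.

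**Figure D3:**
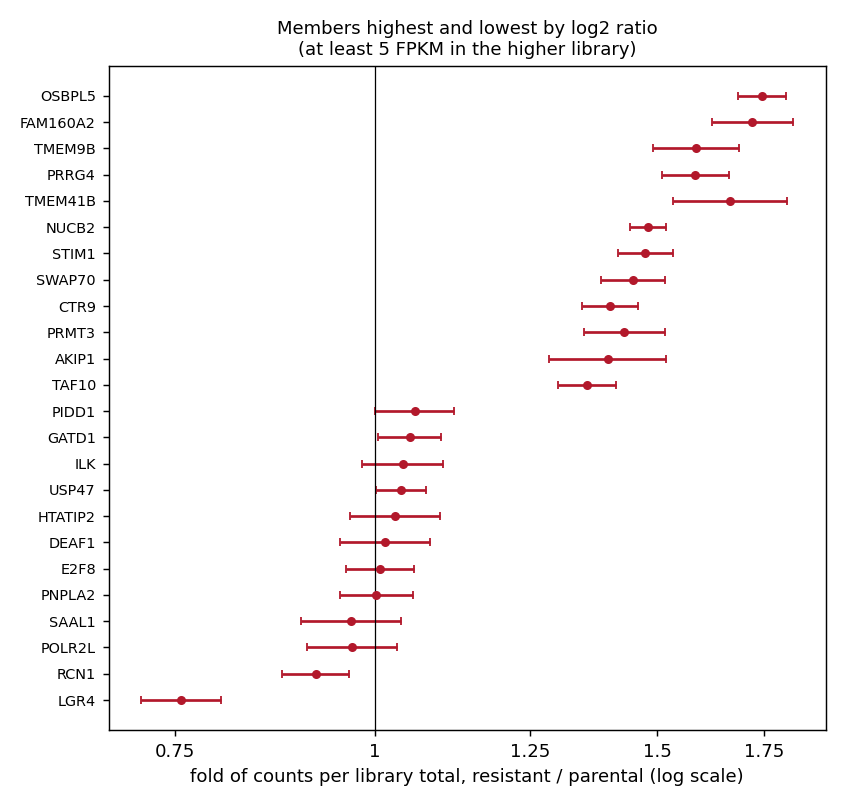
Fold of counts relative to the library totals (resistant over parental, log scale, horizontal axis) for the 12 highest and the 12 lowest by log2 ratio among the 55 members with at least 5 FPKM in the higher library, with exact 95% counting intervals as bars. The upper 12 run from 1.36 for TAF10 to 1.74 for OSBPL5, and the lower 12 from 0.757 for LGR4 to 1.06 for PIDD1.

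RRAS2 and USH1C were the 2 members at least 1.5-fold lower in resistant cells. RRAS2, a GTPase close to the classical RAS proteins, stood at 0.71 FPKM in resistant cells and 2.76 in the parental cells, with 168 and 638 counts. That is 3.85-fold lower by counts (3.25 to 4.60). USH1C, the scaffold protein harmonin, stood at 0.37 and 1.21 FPKM, with 128 and 399 counts, 3.16-fold lower (2.59 to 3.89). Both were low in both libraries. The members on either side of RRAS2, FAR1 and COPB1, had log2 ratios of 0.35 and 0.20, and those on either side of USH1C, NCR3LG1 and SERGEF, had 0.08 and -0.09. USH1C was also the member nearest the level threshold. METTL15 (1.37 FPKM in resistant, 1.04 in parental cells) and PPFIBP2 (1.39 and 1.06) came next inside it. Just outside it lay PARVA (0.87 and 0.95), TRIM34 (0.95 and 0.41) and DCHS1 (0.90 and 0.56).

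In the imprinted domain the members were mixed. Of 13 listed genes 6 were members, and 4 of these were above 0, beside 45.5% of all expressed protein-coding genes. The median log2 ratio of the 6 was 0.27, against -0.02 over all expressed protein-coding genes. TSPAN32, a tetraspanin of blood cells, stood at 3.19 FPKM in resistant cells and 1.35 in the parental cells, a fold of 2.38 (2.09 to 2.71). OSBPL5, given above, and TSSC4, a factor of spliceosome assembly (9.50 and 7.76 FPKM), were also higher. KCNQ1, a potassium channel gene that holds the imprinting control transcript of the domain, was lower, at 2.85 FPKM in resistant cells and 3.68 in the parental cells, a fold of 0.778 (0.711 to 0.852). PHLDA2, a growth-restraining imprinted gene, had 173 counts in resistant and 194 in parental cells, an interval that held 1 (0.712 to 1.08). AMPD3 was on this list but lies outside the domain, at 10308313 to 10507018 (1.82 and 1.31 FPKM). Genes set aside by name also lie between TSPAN32 and OSBPL5. These were CD81, SLC22A18, NAP1L4 and CARS1, with log2 ratios of 0.29, 0.39, 0.34 and 0.18.

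By the start sites of the deposited table, C11orf21 starts 79 bases from TSPAN32 on the other strand. By RefSeq its start site is 2303140, which lies inside TSPAN32. C11orf21 had the highest ratio of all members. It stood at 2.10 FPKM in resistant cells and 0.63 in the parental cells, with 581 and 172 counts and a fold of 3.33 (2.80 to 3.97). C11orf21 was the one member that reached 1 FPKM in resistant cells alone. These genes, head to head by the deposited table, had log2 ratios of 0.93 and 0.83 and so differed from each other by 0.09. By the RefSeq start they would overlap on opposite strands. Whether they share reads was not tested.

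Other head-to-head members were less alike. By the start sites of the deposited table, 8 pairs start within 1000 bases of each other. Over these the median difference of the log2 ratio within a pair was 0.23. Over the 91 pairs of members next to each other in order it was 0.20. KIF18A, a kinesin of the mitotic spindle, stood at 3.43 FPKM in resistant cells and 3.75 in the parental cells, while METTL15, a methyltransferase of mitochondrial ribosomal RNA, stood at 1.37 and 1.04 FPKM. Their RefSeq start sites have 231 bases between them, the stretch shown above. PIK3C2A, a lipid kinase, was at a log2 ratio of 0.13 beside NUCB2 at 0.53, RRP8 at 0.26 beside ILK at 0.05, and HPS5 at 0.37 beside GTF2H1 at 0.11. Members that start head to head were thus about as far apart in ratio as members next to each other in general. The 8 pairs are few and are themselves among the 91, so the medians are not separate, and their difference was not tested.

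Grouped by role, the medians of all the lists were above 0, and differences between the lists were not tested; over all expressed protein-coding genes 45.5% were above 0. Of 22 members in chromatin, transcription and RNA, 20 were above 0, with a median log2 ratio of 0.24. NUP98, POLR2L and PHRF1 (14.1 FPKM in resistant cells and 12.1 in the parental cells) were the most abundant of them, CTR9 the highest by ratio and the clock transcription factor ARNTL the lowest, at 1.60 and 1.86 FPKM. Of 17 in membrane traffic and cytoskeleton, 14 were above 0 (median 0.21), with IPO7, COPB1 and C11orf58 (17.4 and 13.6 FPKM) the most abundant and KIF18A the lowest. Of 12 in metabolism and mitochondria, 11 were above 0 (median 0.23). FAR1 was the most abundant of these, and PGGHG, a glucosidase of collagen-type sugar chains, the highest by ratio, at 4.63 FPKM in resistant cells and 2.99 in the parental cells.

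Of 20 members in signalling, 16 were above 0, with a lower median of 0.14. This list ran from RRAS2 at -1.14 to STIM1 at 0.51, and RHOG, RNH1 and RIC8A, a chaperone of G protein alpha subunits (13.01 FPKM in resistant cells and 12.2 in the parental cells), were its most abundant. HRAS, another RAS GTPase, stood at 10.9 and 9.65 FPKM. The list also held genes that are not signalling genes in the strict sense, such as RNH1 and the DNA repair gene FANCF (3.03 and 2.65 FPKM). Of 6 in ubiquitin and protein handling, 4 were above 0 (median 0.09), from RCN1 at -0.12 to NUCB2 at 0.53. The remaining 13 members were on no list and had a median of 0.21, with 10 above 0.

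**Figure D4:**
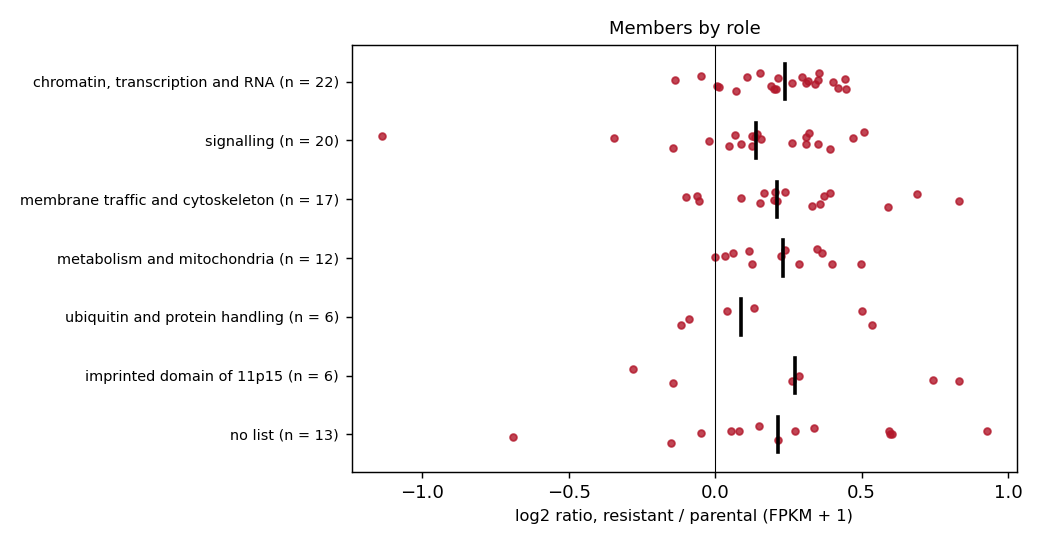
Log2 ratio of FPKM + 1 (resistant over parental, horizontal axis) of each member by role list (rows), with the median of each list as a black bar; a gene on 2 lists appears in both. The medians lie between 0.09 for ubiquitin and protein handling and 0.27 for the imprinted domain.

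Along the arm the difference among members was largest from about 5 to 15 Mb and smaller on either side. The genes set aside by name are not in these windows. In windows of 5 Mb by gene start, the median log2 ratio was 0.20 over 33 members from BET1L to TRIM68, 0.30 over 15 from FAM160A2 to SWAP70, and 0.29 over 15 from AMPD3 to CYP2R1. It was 0.14 over 14 members from C11orf58 to E2F8. Beyond 20 Mb the windows held few members, 4, 5 and 6, with medians of 0.12, 0.05 and 0.17. The genes set aside by name in the last of these, DNAJC24 and EIF3M, had log2 ratios of 0.30 and 0.35. The profile thus holds for the members only. Across members the log2 ratio and the start position correlated at r = -0.14 (Spearman's coefficient -0.09, n = 92 genes of the same 2 libraries), a weak relation.

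The running median of 11 neighbours was above 0 in all 82 windows. It was lowest around DEAF1 (0.06) and highest around IPO7 (0.42). The members of low ratio near DEAF1 were GATD1, PIDD1, PNPLA2 and POLR2L, whose levels were given above. The running median skips the genes set aside by name. Those lying between DEAF1 and POLR2L had higher log2 ratios, from 0.16 for TALDO1 to 0.36 for SLC25A22, so the low values hold for the members only.

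At the proximal limit the members were mostly higher and the genes beyond it were not. ARL14EP stood at 5.01 FPKM in resistant cells and 4.26 in the parental cells, WT1 at 3.83 and 3.60, PRRG4 at 11.6 and 7.36, and QSER1 at 9.52 and 8.46; RCN1, described above, was the exception. DEPDC7, at 33015876 to 33033582, stood at 3.21 and 1.78 FPKM, a fold of 1.81 (1.60 to 2.06). Just beyond it TCP11L1 stood at 0.90 FPKM in resistant cells and 1.03 in the parental cells, a fold of 0.876 (0.753 to 1.02). CSTF3, a factor of messenger RNA cleavage, stood at 15.6 and 16.2 FPKM, the kinase HIPK3 at 20.7 and 21.9, and FBXO3 at 2.58 and 2.53.

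LMO2, an adaptor of blood transcription factors, stood at 41.7 FPKM in resistant cells and 44.8 in the parental cells, and CAPRIN1, an RNA-binding protein, at 48.6 and 52.5. Of the first 30 genes beyond the limit 16 were above 0, with a median log2 ratio of 0.03. Over all 439 genes of chromosome 11 beyond the limit, chosen by the same filters, the median was -0.03 and 190 were above 0. Their summed counts gave a fold of 0.989 (0.987 to 0.991), against 1.23 for the members. The limit itself was chosen for this contrast, so the step is a property of the rule and is not tested.

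The direction and size were also set beside 2 other runs of genes, which like the members were noted for their ratios in these libraries. The 39 genes of chromosome 13 from STK24 on had a median log2 ratio of 0.34, with 34 above 0. The 126 genes of chromosome 4 up to IGFBP7 had a median of -0.58, with 3 above 0. The members were thus higher in resistant cells like the run on chromosome 13, by a smaller amount, while the run on chromosome 4 was lower. With 1 library per group none of these differences was tested.

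**Figure D5:**
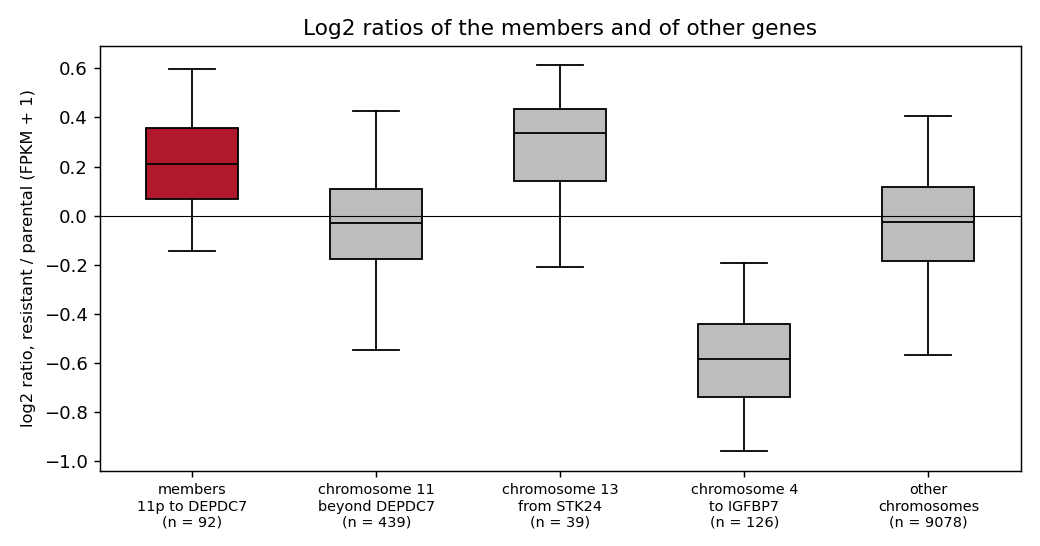
Log2 ratio of FPKM + 1 (resistant over parental, vertical axis) for the members and for genes elsewhere chosen by the same filters; boxes show the middle 50% with the median, and whiskers reach the outermost genes within the 5th to 95th percentiles. The box of the members lies above 0, from 0.07 to 0.36, and that of chromosome 11 beyond DEPDC7 spans 0.

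The genes set aside by name, which lie among the members, had a median log2 ratio of 0.33, and 29 of 31 were above 0. Their summed counts gave a fold of 1.26. The rule on names thus removed genes with ratios at least as high as those of the members.

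Across members the log2 ratio correlated with log10 mean FPKM at r = 0.21 (Spearman's coefficient 0.17, n = 92 genes of the same 2 libraries). Over all expressed protein-coding genes this was 0.09. With the CpG ratio of the promoter window it correlated at r = 0.18 (Spearman's coefficient 0.16, n = 77). For the CpG ratio the value over all expressed protein-coding genes was r = -0.005 (Spearman's coefficient 0.006, n = 8501). In 3 groups of about equal size by mean level, low to high, the median log2 ratio was 0.14, 0.25 and 0.21; by counts without a pseudocount the median folds were 1.17, 1.24 and 1.17. In 3 such groups by gene span it was 0.19, 0.26 and 0.21, and by strand 0.22 for 41 genes on the plus and 0.20 for 51 on the minus strand. The 15 members that overlap another expressed gene had a median of 0.15, and the other 77 had 0.22. The library protocol marked strand, but whether the counting used it is not given in the sources used here, so reads of overlapping members such as ILK and TAF10 or NUP98 and PGAP2 may have been divided between them. CSNK2A3, a copy of a kinase gene on another chromosome, may likewise share reads with it (8.23 FPKM in resistant cells and 6.40 in the parental cells).

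The base composition of the members was close to that of other genes. Their median transcript GC content was 47.6%, against 48.2% over all expressed protein-coding genes, and it correlated with the log2 ratio at r = 0.01 across members (Spearman's coefficient -0.08, n = 92 genes of the same 2 libraries). RefSeq promoter windows were found for 77 members. Where a gene had several, the one starting nearest to the outer limit of the gene in the deposited table was taken. Some windows may therefore belong to a start site little used in these cells. Of these, 62 (80.5%) were rich in CpG, with a GC content of at least 55% and an observed to expected CpG ratio of at least 0.6, against 79.0% of the windows of all expressed protein-coding genes.

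The GC box, GGGCGG on either strand, was in 60 of the 77 windows (77.9%), in 71.7% of those of expressed protein-coding genes and in 45.0% of all 35116 RefSeq windows. The letters TATAAA were in 0 of the 77 windows and in 5.16% of those of expressed protein-coding genes. CCAAT was in 33.8% and 37.2%. CACGTG was in 10 of the 77 windows and in 10.6% of those of expressed protein-coding genes, and GAGGAAGT in 1 of the 77 and in 2.72%. Some matches overlap each other, as in the window of DEPDC7, where 2 of its 3 GC boxes share letters. Such letters are a description of the windows and not of binding.

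The 14 members with a CpG ratio under 0.6 had log2 ratios from -1.14 to 0.93 (SD 0.45), and the 63 others from -0.69 to 0.74 (SD 0.24). The middle 50% were about equally wide in both, from 0.00 to 0.30 in the 14 and from 0.09 to 0.37 in the 63. The lowest and the highest of the 14, RRAS2 and C11orf21, each reached 1 FPKM only in the library where it was higher. Over all expressed protein-coding genes the SDs were 0.48 and 0.29. RRAS2 had a CpG ratio of 0.315 and 5 CpG in the window shown above, and C11orf21 had 0.158; DEPDC7 had 0.796 and TCP11L1 0.844. The RefSeq starts of C11orf21, DEPDC7, TCP11L1 and METTL15 are not those of the deposited table, so their windows may not be the ones in use here.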

How the data were processed

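Poly(A) RNA of 1 resistant and 1 parental THP1 library was compared, with groups taken from the sample labels. The authors deposited 1 table with FPKM values (2 decimals) and raw counts per gene. The submitters' processing notes name GRCh38 and, with no role or order, StringTie 1.3.4d, edgeR, DESeq2, HISAT2 2.0.4 and cutadapt 1.9; neither count tool was run here. Annotation release and multi-mapping are not given in the sources used here. In 8948 genes with at least 500 counts in each library, log2 ratios from FPKM and from counts differed by a constant (median -0.025, SD 0.002), so the count column with an unexplained suffix was taken as the same library.

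Ratios were taken as the log2 of FPKM + 1 in resistant over FPKM + 1 in parental cells. A gene counted as protein-coding when any of its listed transcript types was. Folds of counts are relative to library totals, with Clopper-Pearson intervals. The intervals and the rule of size were tried on simulated counts of genes with at least 5 FPKM, which held counting error only. The other steps were not tried in this way. Members, role lists and markers were chosen with earlier results of these data known. Members named were the 12 highest and 12 lowest with at least 5 FPKM, the 8 most abundant, the 6 nearest the limit, and for each role list the 3 most abundant and the highest and lowest. Those at least 1.5-fold lower and the 6 genes beyond the limit were also named. Others, among them C11orf21 and the printed promoters, were chosen after their values were seen. Transcript GC came from GENCODE 29 and promoters from RefSeq. Calculations used scipy 1.17.1, pandas 2.3.3 and numpy 2.4.6 under Python 3.11.15, and figures matplotlib 3.10.9.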

Additional observations from a re-analysis of the deposited data

How the results depend on the processing

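The median log2 ratio of the members was above 0 in every alternative tried, from 0.0852 with no minimum level (162 genes, many of them near 0) to 0.26 with a pseudocount of 0.1 FPKM or with counts scaled to library size. The members above 0 numbered 50 of 55 with a minimum of 5 FPKM and 20 of 26 in the first 3 Mb alone. In the main setting 45.5% of all expressed protein-coding genes were above 0. Past the 1.5-fold size were 2.17% of them on the higher side and 4.51% on the lower. Past a log2 ratio of 0.32 these shares were 8.47% and 12.7%. For the other alternatives no such shares were computed, so the counts there are not compared with other genes. The 8 members at least 1.5-fold higher became 1 with a pseudocount of 5 FPKM, 5 with a minimum of 5 FPKM, 2 in the first 3 Mb alone and 4 where protein-coding had to be the first type listed, an alternative chosen after seeing the data; at a log2 ratio of 0.32 there were 30 and with a fold of 2 there were 0. The 2 members at least 1.5-fold lower became 0 with a pseudocount of 5 FPKM, 0 with a minimum of 5 FPKM, 0 in the first 3 Mb alone, 1 with protein-coding listed first and 1 with a fold of 2. Fewer genes were counted under the minimum of 5 FPKM, in the first 3 Mb and with protein-coding listed first, and a larger pseudocount shrinks ratios by construction. Centring on the median of all expressed genes (-0.02) left 77 members above 0. No paired analysis was possible because each group has 1 library, and for the same reason no library could be left out. Low members such as RRAS2, USH1C and C11orf21 rest on fewer counts, 168 and 638, 128 and 399, and 581 and 172 in resistant and parental cells, and their folds have wide intervals.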

Other observations

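The stretch also held 18 expressed genes of other types, mainly pseudogenes and long noncoding RNAs. Their median log2 ratio was 0.15, with 12 above 0, and their summed counts gave a fold of 1.16 (1.13 to 1.20). At least 1.5-fold higher were 3 of the 18, and 0 were at least 1.5-fold lower. Of all expressed protein-coding genes 45.5% were above 0, 2.17% past this size on the higher and 4.51% on the lower side. No such shares were computed for other gene types, so nothing is read from these counts. Levels of the 18 were low, with a median of 1.49 FPKM in resistant cells and 1.775 in parental cells.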
